A study of Mus musculus with 4 samples.

Results

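Nuclear receptors are transcription factors, many of which change their activity when a hormone, lipid or other small molecule binds them. The 37 receptor genes described here were listed by name, and all 37 had at least 1 probe among the 21713 genes with a symbol on the array. They were measured in sorted kidney tubule fragments from mice on a diet low or high in magnesium, with 8 RNA samples compared in 4 littermate pairs.

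Most nuclear receptors bind DNA through zinc fingers that read the hexamer AGGTCA or a relative of it, alone, as pairs of the same receptor or as pairs with a retinoid X receptor (RXR). Liganded receptors recruit coactivators and raise the transcription of nearby genes, and unliganded or repressive members recruit corepressors. In the kidney, steroid receptors are best known for control of salt transport, while lipid-sensing and estrogen-related members are known for control of fatty acid use and mitochondrial genes.

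All mice were PV-eGFP transgenic on a B6D2F2 background, so the parvalbumin promoter drove a green reporter in every sample of either diet, and they were 6 to 8 weeks old at tubule isolation. The low-diet group had received food with 0.02% magnesium by weight and the high-diet group food with 0.48%, each for 15 days. Each array carried the RNA of 1 low-diet and 1 high-diet sample of littermates, from 4000 pooled reporter-positive fragments per sample, and pairs are named by their sample numbers, H for the high and L for the low diet. Cy5 carried the low-diet RNA in 2 pairs, H1/L1 and H7/L7, while Cy3 carried it in H3/L2 and H8/L8. Whether 1 mouse or several gave a sample is not stated in the labels. The p-values rest on these 4 pairs only. They measure the spread left after a term for the dye orientation, moderated by the spread of all probes, and not the printed SD.

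The labelled cell type was the distal convoluted tubule (DCT), and all 11 DCT marker genes examined, among them its cotransporter gene Slc12a3, were above background in all 8 samples. So were 19 of 20 proximal tubule markers, all 8 thick ascending limb markers, 5 of 5 podocyte, 8 of 9 endothelial and 6 of 8 leukocyte markers, and 16084 of all 21713 named genes, so passing this limit does not set one cell type apart. The DCT list stood higher on the low diet, with a summed normalized intensity of 85691 to 91833 in the 4 low-diet samples and of 30436 to 60599 in the 4 high-diet samples, which do not overlap. These sums add linear intensities, so the brightest markers weigh most. The thick ascending limb sums did not overlap either, while those of the other marker lists examined did. The median log2 ratio of low over high diet of the DCT list was 0.54 in H1/L1, 0.91 in H7/L7, 0.22 in H3/L2 and 0.19 in H8/L8. Slc12a3 itself was at a log2 ratio of low over high diet of 0.13 ± 0.27, while Pvalb, whose promoter drives the reporter used for the sort, was at 2.27 ± 0.40 (SD, n = 4). In bulk RNA, fewer cells of a type and less RNA per cell cannot be told apart. The share of all probes above background lay between 65.5% and 97.4% in low-diet samples and between 85.1% and 96.2% in high-diet samples, and on each array it was higher in Cy5 than in Cy3.

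Of the 37 receptor genes, 32 were above background in all 8 samples by their brightest probe and 0 had a saturated spot. The other 5 were Esr1 and Nr5a2, above background in 3 low-diet and 4 high-diet samples, Nr1d1 in 2 and 4, Nr4a3 in 2 and 3, and Pgr in 2 and 1. Every log2 ratio below is the low-diet level over the high-diet level, and values above 0 mean more RNA under low magnesium. Adjusted p-values are from limma with Benjamini-Hochberg adjustment over all 39429 probes, and a gene passed at an adjusted p under 0.05.

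1 of the 37 receptor genes passed, which is 2.70% of them, against 7.82% of all 21713 named genes. The gene was Esrrb, and it rose. The share of all named genes that passed as higher was 4.88%, and the share that passed as lower was 2.95%. None of the receptor genes passed as lower in limma, with 5 lower at an unadjusted p under 0.05. At that looser limit 8 receptor genes stood out in either direction, which is 21.6% against 26.7% of all named genes, so neither share of receptor genes exceeded the background. Over all 39429 probes 5.82% passed, 3.48% as higher and 2.35% as lower, and over named genes above background in all 8 samples 10.6% passed, 6.58% as higher and 3.97% as lower.

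The 37 log2 ratios ran from -0.27 to 0.55 with a median of -0.03, beside a median of 0.00 over all named genes. Of the 37, 10 lay above 0 and 27 below, while 11099 of all 21713 named genes lay above 0. The median of the receptor genes in each pair was -0.05 in H1/L1, 0.02 in H7/L7, -0.09 in H3/L2 and -0.06 in H8/L8. The sign was the same in all 4 pairs for 7 receptor genes, 1 above and 6 below 0, which is 18.9% against 27.6% of all named genes. Most receptor genes thus had ratios on either side of 0 from pair to pair.

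**Figure D1:**
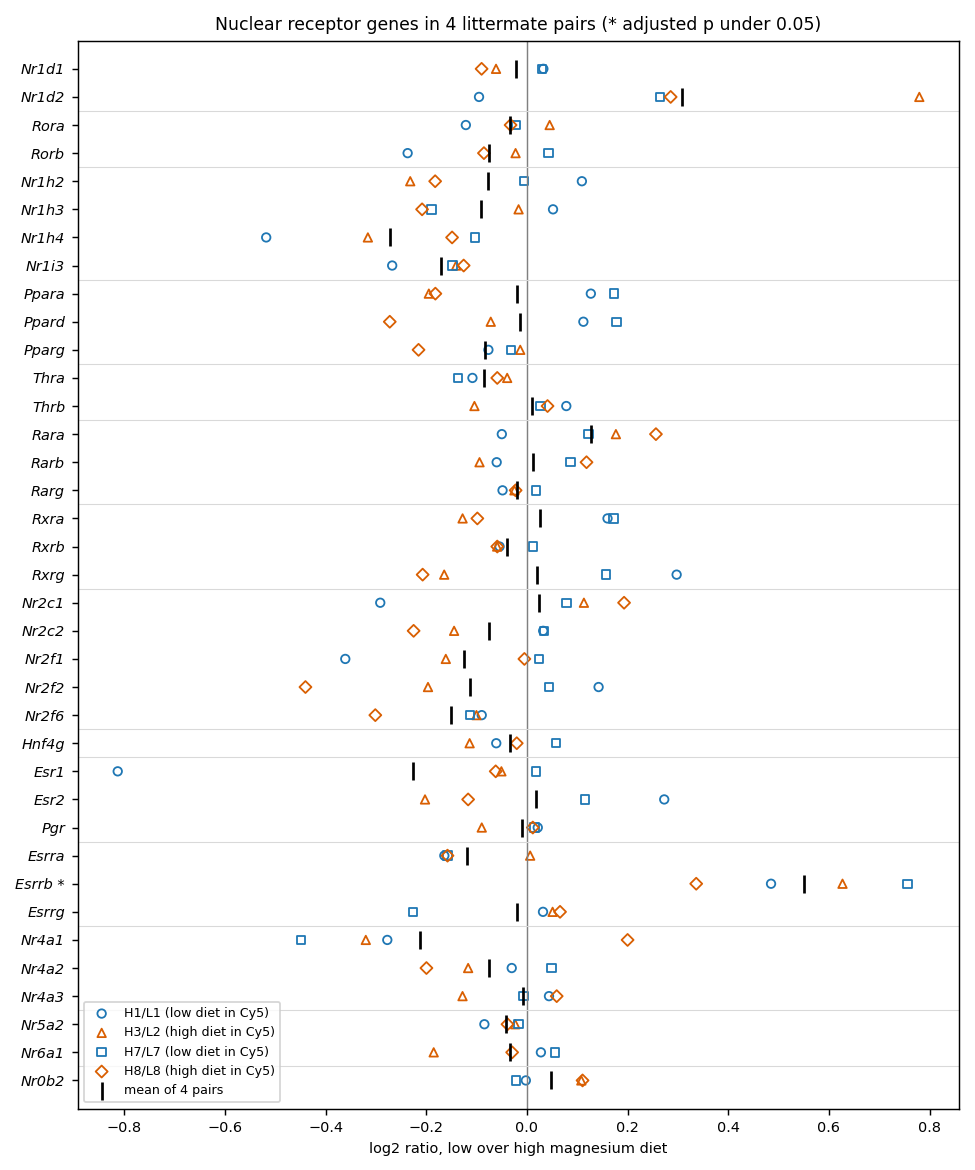
Log2 ratio of low over high magnesium diet (horizontal axis) of the 37 nuclear receptor genes (rows, grouped by subfamily) in each of the 4 littermate pairs (open symbols) with their mean (vertical bar). Esrrb, marked by a star, lies above 0 in all 4 pairs at 0.34 to 0.76, and most other rows straddle 0.

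Esrrb encodes an estrogen-related receptor, an orphan receptor with no known natural hormone that is best known in mouse for its part in embryonic stem cells. Its level on the log2 intensity scale was 10.57 in L1, 10.68 in L2, 10.87 in L7 and 10.83 in L8. On the high diet it was 10.09 in H1, 10.05 in H3, 10.12 in H7 and 10.49 in H8. Every low-diet sample stood above every high-diet sample, and H8 stood above the other 3 high-diet samples, which lay within 10.05 to 10.12. The log2 ratios were 0.49 in H1/L1, 0.76 in H7/L7, 0.63 in H3/L2 and 0.34 in H8/L8, with a mean of 0.55 ± 0.18 (SD, n = 4; 1.47-fold; limma adjusted p = 0.0280). The 95% interval of this fold was 1.29 to 1.66.

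The rise of Esrrb rests on its brightest probe and on all 4 pairs together. A dimmer Esrrb probe had a log2 ratio of 0.06 ± 0.07 (SD, n = 4; limma adjusted p = 0.434). With any 1 pair left out the ratio of the brightest probe stayed between 0.48 and 0.62, but it no longer passed in any of the 4 cases (limma adjusted p between 0.0623 and 0.0714), nor with plain background subtraction (ratio 0.59, adjusted p = 0.0658). The DCT markers moved in the same direction, with 6 of 11 passing as higher, 0 as lower and a list median of 0.71. The summed normalized intensity of 8 thick ascending limb markers also did not overlap, at 70946 to 97018 on the low diet and 30145 to 52985 on the high diet, although 2 of these markers passed as higher and 2 as lower and their median ratio was 0.05. The median of the DCT list was 0.54 in H1/L1, 0.91 in H7/L7, 0.22 in H3/L2 and 0.19 in H8/L8, and the part of either marker list in the Esrrb result was not tested.

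The array does not measure promoters, so the sequences at the starts of Esrrb are shown only to place the gene. RefSeq annotates 2 starts on chromosome 12 of build GRCm38.p6, both on the plus strand. The windows run 5′ to 3′ from 250 bases before to 50 bases after each start. Both are wholly in lower case, since capitals mark a match to AGGTCA or CACGTG and neither window holds one on either strand.
Esrrb start at chr12:86360867-86361166: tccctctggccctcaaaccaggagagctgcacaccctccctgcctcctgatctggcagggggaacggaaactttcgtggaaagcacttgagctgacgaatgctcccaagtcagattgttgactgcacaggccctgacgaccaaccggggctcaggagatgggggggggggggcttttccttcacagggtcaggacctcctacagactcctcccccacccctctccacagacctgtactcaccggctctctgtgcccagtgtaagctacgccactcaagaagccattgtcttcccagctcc
Esrrb start at chr12:86421394-86421693: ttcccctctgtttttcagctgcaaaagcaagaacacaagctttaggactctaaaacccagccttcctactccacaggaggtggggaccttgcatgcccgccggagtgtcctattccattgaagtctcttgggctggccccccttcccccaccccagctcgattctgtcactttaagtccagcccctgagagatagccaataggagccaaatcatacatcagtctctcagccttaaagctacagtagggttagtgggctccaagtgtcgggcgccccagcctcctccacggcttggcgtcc

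The relatives of Esrrb did not pass. Esrra encodes a receptor that drives mitochondrial and oxidative genes together with the PGC1 coactivators. Its log2 levels on the low diet were 9.60 in L1, 9.83 in L2, 9.74 in L7 and 9.78 in L8. On the high diet they were 9.77 in H1, 9.82 in H3, 9.89 in H7 and 9.93 in H8. The groups overlapped, and the ratios were -0.16 in H1/L1, -0.16 in H7/L7, 0.01 in H3/L2 and -0.16 in H8/L8, with a mean of -0.12 ± 0.08 (SD, n = 4; limma adjusted p = 0.165). Esrrg, a relative that is also known for control of mitochondrial genes, had a log2 ratio of -0.02 ± 0.14 (SD, n = 4) by its brightest probe and of 0.10 ± 0.24 by a dimmer one (limma adjusted p = 0.884 and 0.169).

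Receptors for bile acids and foreign compounds had the lowest ratios among those with the same sign in all 4 pairs. Nr1h4 encodes FXR, the bile acid receptor. Its log2 level was 7.48 in L1, 7.61 in L2, 7.43 in L7 and 7.76 in L8, against 7.99 in H1, 7.92 in H3, 7.54 in H7 and 7.91 in H8. The groups overlapped because H7 lay among the low-diet samples, yet each low-diet sample was below its own littermate. The ratios were -0.52 in H1/L1, -0.10 in H7/L7, -0.32 in H3/L2 and -0.15 in H8/L8, with a mean of -0.27 ± 0.19 (SD, n = 4; limma adjusted p = 0.135). Median centring in place of loess brought this gene past the threshold (ratio -0.29, adjusted p = 0.0470). That setting left 30481 of 39429 probes with an unadjusted p under 0.05 for the dye in limma. Nr1h4 did not pass in the other 12 of 13 alternative settings, where the limma adjusted p reached 0.336.

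Nr1i3 encodes CAR, a sensor of foreign compounds that induces drug-metabolizing enzymes. Its log2 level was 7.05 in L1, 7.34 in L2, 7.22 in L7 and 7.66 in L8, against 7.32 in H1, 7.48 in H3, 7.37 in H7 and 7.78 in H8. The levels overlapped between the diets, and each low-diet sample was below its littermate. The ratios were -0.27 in H1/L1, -0.15 in H7/L7, -0.14 in H3/L2 and -0.13 in H8/L8, with a mean of -0.17 ± 0.07 (SD, n = 4; limma adjusted p = 0.0605). Nr1i3 passed without background correction (ratio -0.27, adjusted p = 0.0266), with median centring (ratio -0.23, adjusted p = 0.0437) and in the authors' processed ratios (ratio -0.26, adjusted p = 0.0288). It did not pass in the other 10 of 13 alternative settings. Among these were the mean of its probes (ratio -0.07, limma adjusted p = 0.197) and each pair left out (limma adjusted p between 0.0905 and 0.210). A dimmer Nr1i3 probe had a log2 ratio of 0.03 ± 0.07 (SD, n = 4), so the lower values rest on the brightest probe.

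Markers of the proximal tubule were lower in some of the same pairs. Their median log2 ratio was -0.89 in H1/L1, -0.04 in H7/L7, -0.63 in H3/L2 and 0.03 in H8/L8, where Nr1h4 was also lowest in H1/L1 and H3/L2. Of the 20 markers 2 passed as lower and 2 as higher, with an overall median of -0.45. The summed normalized intensity of the list was 7024 to 9256 in low-diet samples and 7484 to 16095 in high-diet samples, which overlap. Its defining markers Slc34a1, Lrp2, Slc5a2 and Slc22a6 were above background in all 8 samples. Nr1i3 was at -0.27 in H1/L1 and between -0.15 and -0.13 in the other pairs. Endothelial markers, 9 in number with 1 mean ratio above 0, also had their lowest medians in H1/L1 and H3/L2. Their medians were -0.17 in H1/L1, 0.00 in H7/L7, -0.21 in H3/L2 and -0.03 in H8/L8. The part of either marker list in the ratios of Nr1h4 and Nr1i3 was not tested.

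**Figure D2:**
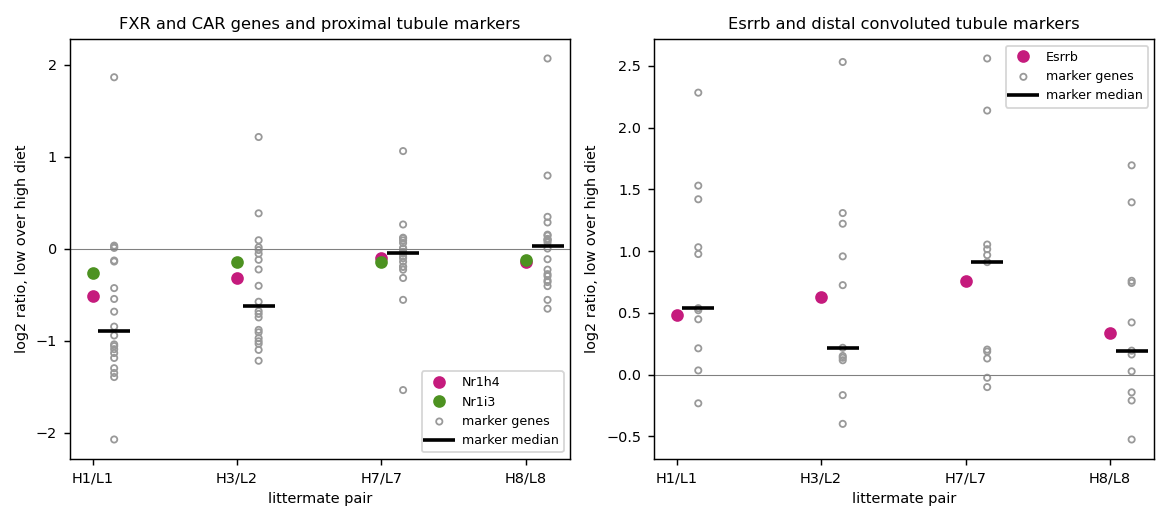
Log2 ratio of low over high diet (vertical axis) by littermate pair. The left panel shows Nr1h4 and Nr1i3 (filled) beside the 20 proximal tubule markers (open) and their median (bar), and the right panel shows Esrrb beside the 11 DCT markers. The marker medians of the left panel run from -0.89 in H1/L1 to 0.03 in H8/L8, and Nr1h4 is lowest in H1/L1.

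The oxysterol receptors LXR, which turn on genes of cholesterol export, did not pass. Nr1h2 (LXRβ) had a log2 ratio of -0.08 ± 0.16 and Nr1h3 (LXRα) of -0.09 ± 0.13 (SD, n = 4; limma adjusted p = 0.283 and 0.460). A dimmer Nr1h3 probe lay below 0 in 4 of 4 pairs at -0.07 ± 0.05 and did not pass either (limma adjusted p = 0.229). Among the genes known as targets of LXR and FXR, 2 of 17 passed, both higher, with a list median of 0.01. Abcg1, a cholesterol export pump, rose by 0.90 ± 0.23 (SD, n = 4; 1.87-fold; limma adjusted p = 0.0203), with 4 of 4 pairs between 0.70 and 1.14. It did not pass without H1/L1 (ratio 0.82), H7/L7 (0.99) or H8/L8 (1.01). Mylip, which marks the LDL receptor for degradation, also passed at 0.20 ± 0.27, with ratios of 0.50 and 0.38 where the low diet was in Cy5 and of -0.03 in each of the other two pairs, and its dimmer probe was at -0.0031 ± 0.01.

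Of 9 measured CAR targets, 1 passed and it was lower. Alas1, the rate-limiting enzyme of heme synthesis, had a log2 ratio of -0.40 ± 0.15 (SD, n = 4; limma adjusted p = 0.0182) by its brightest probe. Its dimmer probes were at -0.02 and 0.05, so its fall rests on 1 of 3 probes.

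To show what lies at the starts of receptor genes discussed here, the windows of Nr1h4 and Nr1i3 are given, the members with the lowest unadjusted p among this group. Capitals mark AGGTCA on either strand, read as TGACCT on the other strand, or the E-box CACGTG. The same windows of all genes held AGGTCA in 16.3% of 32851 cases, TAGGTCA, which contains AGGTCA, in 2.61% and CACGTG in 7.15%. Of 55 windows of the 35 receptor genes found in the table, 11 held AGGTCA, 0 held TAGGTCA and 6, or 10.9%, held CACGTG. A match is a description of the letters and not a site of binding.
Nr1h4 start at chr10:89506609-89506908, minus strand: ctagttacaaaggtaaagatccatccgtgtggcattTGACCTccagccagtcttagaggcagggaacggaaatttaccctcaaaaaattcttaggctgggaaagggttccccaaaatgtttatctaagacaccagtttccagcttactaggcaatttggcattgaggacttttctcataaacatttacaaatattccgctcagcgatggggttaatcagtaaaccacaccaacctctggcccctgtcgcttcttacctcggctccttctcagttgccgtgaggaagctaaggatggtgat
Nr1i3 start at chr1:171213720-171214019, plus strand: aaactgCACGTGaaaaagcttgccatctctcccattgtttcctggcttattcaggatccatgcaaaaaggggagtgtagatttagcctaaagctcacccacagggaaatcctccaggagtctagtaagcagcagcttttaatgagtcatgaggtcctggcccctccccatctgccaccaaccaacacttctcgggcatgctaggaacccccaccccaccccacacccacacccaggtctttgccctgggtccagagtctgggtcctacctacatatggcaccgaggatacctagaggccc

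The PPAR receptors, which sense fatty acids and control their oxidation and storage, did not pass. Ppara, the subtype best known for fatty acid oxidation, had log2 ratios of 0.13 in H1/L1 and 0.17 in H7/L7 against -0.20 in H3/L2 and -0.18 in H8/L8. The sign followed the dye and not the diet, and the diet mean was -0.02 ± 0.20 (SD, n = 4; limma adjusted p = 0.772). Ppard, with broad expression, was at -0.01 ± 0.20 and showed the same split. Pparg, the regulator of fat cell formation, lay below 0 in 4 of 4 pairs at -0.08 ± 0.09. Of 21 measured PPAR targets 1 passed, namely Cyp4a14, a fatty acid hydroxylase, which rose by 0.26 ± 0.06 (SD, n = 4; limma adjusted p = 0.0269). The list ran from -0.41 to 0.30 with a median of -0.01. At an unadjusted p under 0.05 stood 9 of the 21 targets, 5 lower and 4 higher. This is a larger share than the 26.7% of all named genes.

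Among hormone receptors, those for thyroid hormone, retinoic acid, estrogen and progesterone did not pass. Thra encodes thyroid hormone receptor α. Its log2 level was 6.96 in L1, 7.07 in L2, 6.98 in L7 and 7.11 in L8, against 7.07 in H1, 7.11 in H3, 7.12 in H7 and 7.17 in H8. Each low-diet sample was below its littermate, and the groups overlapped. The ratios were -0.11 in H1/L1, -0.14 in H7/L7, -0.04 in H3/L2 and -0.06 in H8/L8, with a mean of -0.09 ± 0.04 (SD, n = 4; limma adjusted p = 0.160). The probe was dim, and the offset added to each intensity shrinks ratios of dim probes. With plain background subtraction the ratio was -0.29 and still did not pass (adjusted p = 0.219). Dimmer Thra probes were at -0.05 ± 0.12 and, above 0 in 4 of 4 pairs, at 0.04 ± 0.04. The mean of all Thra probes was at -0.03 (limma adjusted p = 0.507), so the fall in all 4 pairs rests on the brightest probe. Thrb, the β receptor, was at 0.01 ± 0.08.

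Genes of thyroid hormone action held 1 call among 10 measured. Atp2a2, the calcium pump of the endoplasmic reticulum and a known thyroid hormone target in heart, rose by 0.71 ± 0.23 (SD, n = 4; limma adjusted p = 0.0305). Its pair ratios lay between 0.50 and 1.01, and a dimmer Atp2a2 probe was at 0.02 ± 0.08.

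Rara encodes retinoic acid receptor α. Its log2 level was 7.91 in L1, 7.85 in L2, 8.01 in L7 and 7.92 in L8, against 7.96 in H1, 7.68 in H3, 7.89 in H7 and 7.66 in H8. The groups overlapped, with H1 and H7 among the low-diet values. The ratios were -0.05 in H1/L1, 0.12 in H7/L7, 0.18 in H3/L2 and 0.26 in H8/L8, with a mean of 0.13 ± 0.13 (SD, n = 4; limma adjusted p = 0.169). A dimmer Rara probe was at -0.22 ± 0.34, so the probes of Rara differed in sign. Rarb and Rarg were at 0.01 ± 0.11 and -0.02 ± 0.03.

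Stra6, which encodes the cell-surface receptor that takes up retinol from its plasma carrier, rose by 0.68 ± 0.10 (SD, n = 4; 1.60-fold; limma adjusted p = 0.0107), with 4 of 4 pairs between 0.58 and 0.81. It did not pass without H1/L1 (ratio 0.70, adjusted p = 0.0514) or with plain background subtraction (ratio 0.96, adjusted p = 0.0514). Cyp26c1, an enzyme that clears retinoic acid, rose by 0.30 ± 0.12 by its brightest probe, while its dimmer probe, near background, was at -0.02. In all, 2 of 15 measured retinoid genes passed, both higher, with a list median of 0.00. The list ran from -0.49 to 0.68. At an unadjusted p under 0.05 stood 5 of the 15, 3 higher and 2 lower, beside 26.7% of all named genes.

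The RXR partners of many of these receptors did not pass. Rxra had log2 ratios of 0.16 in H1/L1 and 0.17 in H7/L7 against -0.13 in H3/L2 and -0.10 in H8/L8. Rxrg was at 0.30 and 0.16 in the same pairs with low diet in Cy5, against -0.16 and -0.21 in the others. As with Ppara, the sign went with the dye, and the diet means were 0.03 ± 0.16 for Rxra, 0.02 ± 0.25 for Rxrg and -0.04 ± 0.03 for Rxrb (SD, n = 4). A dimmer Rxra probe was at -0.15 ± 0.21 (limma adjusted p = 0.0774).

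Esr1, the estrogen receptor α, had a log2 ratio of -0.81 in H1/L1, against 0.02 in H7/L7, -0.05 in H3/L2 and -0.06 in H8/L8. Its mean of -0.23 ± 0.39 (SD, n = 4; limma adjusted p = 0.447) thus rested on 1 pair, and the 3 dimmer Esr1 probes were between -0.07 and 0.02. Without H7/L7 it passed as lower at a ratio of -0.43, the only one of the other 29 receptor genes to pass under any of the 13 alternative settings. Esr2, the β receptor, was at 0.02 ± 0.22 and Pgr, the progesterone receptor, at -0.01 ± 0.05.

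Receptors of the circadian clock were the next group. Nr1d1 and Nr1d2 encode the REV-ERB repressors, and Rora and Rorb encode activators that bind the same DNA elements. Nr1d2 had log2 levels of 9.61 in L1, 10.02 in L2, 9.90 in L7 and 10.10 in L8, against 9.71 in H1, 9.24 in H3, 9.63 in H7 and 9.81 in H8. The groups overlapped, with L1 below H1. The ratios were -0.10 in H1/L1, 0.26 in H7/L7, 0.78 in H3/L2 and 0.29 in H8/L8, with a mean of 0.31 ± 0.36 (SD, n = 4; limma adjusted p = 0.183). The dimmer Nr1d2 probe lay above 0 in 4 of 4 pairs at 0.42 ± 0.23 (limma adjusted p = 0.0841), so neither probe passed and both had positive means.

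Its relative Nr1d1 was at -0.02 ± 0.06 by its single probe, which was near background. Rora was at -0.03 ± 0.07 and Rorb at -0.08 ± 0.12. Of 17 measured clock genes 1 passed, namely Csnk1d, a kinase that marks period proteins for turnover, which rose by 0.20 ± 0.01 (SD, n = 4; limma adjusted p = 0.0309). Its dimmer probe was at -0.0040 ± 0.07 (limma adjusted p = 0.968), and Csnk1d did not pass with the mean of both probes (ratio 0.10, adjusted p = 0.116) or with median centring (ratio 0.20, adjusted p = 0.0665). The list ran from -0.23 to 0.20 with a median of 0.01. The sources used here give no time of day for the sampling.

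For Nr1d2, RefSeq lists 1 start, on the minus strand, shown because its window holds the hexamer that receptors of this family read. Capitals mark that AGGTCA. The hexamer occurred in 16.3% of the windows of all genes, and the Nr1d2 window held no TAGGTCA. The match is a description of the letters and not a site of binding.
Nr1d2 start at chr14:18239057-18239356, minus strand: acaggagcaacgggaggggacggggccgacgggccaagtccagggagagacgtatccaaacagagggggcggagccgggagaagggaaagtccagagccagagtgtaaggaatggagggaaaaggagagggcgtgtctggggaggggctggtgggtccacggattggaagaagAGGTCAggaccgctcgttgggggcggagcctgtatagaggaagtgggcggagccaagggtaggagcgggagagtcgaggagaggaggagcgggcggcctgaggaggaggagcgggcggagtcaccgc

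**Figure D3:**
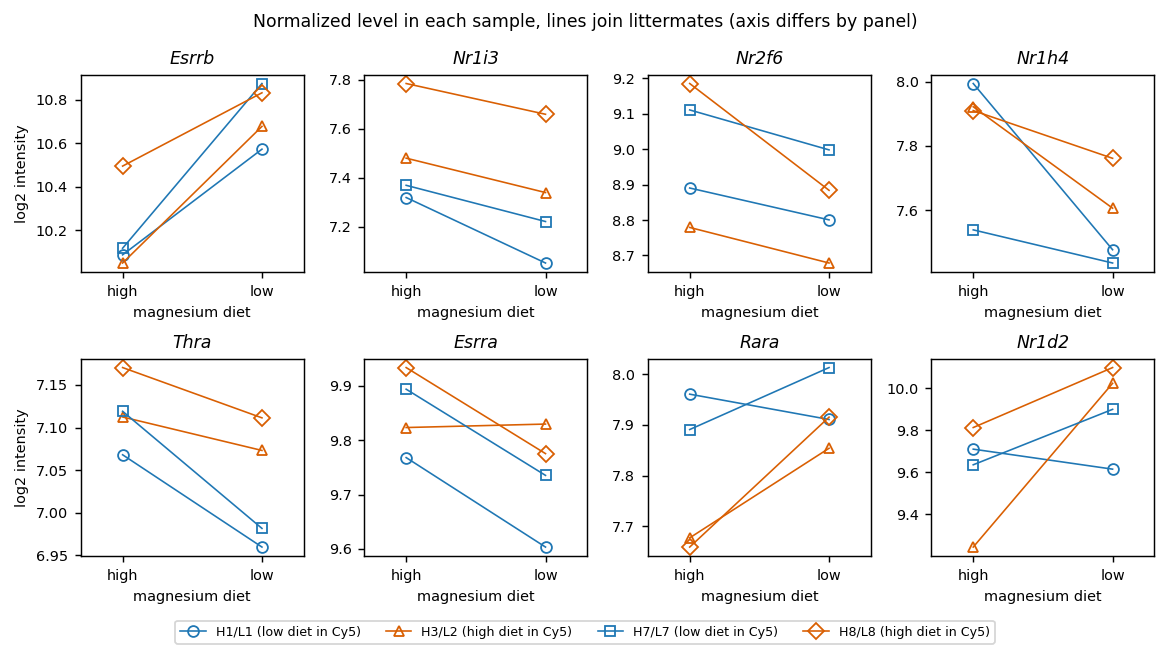
Normalized log2 intensity (vertical axis, a different range in each panel) of the 8 receptor genes with an unadjusted p under 0.05, on the high and low magnesium diet, with lines joining littermates. All 4 lines rise for Esrrb and fall for Nr1i3, Nr2f6, Nr1h4 and Thra, while Esrra, Rara and Nr1d2 have 1 line that runs the other way.

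The COUP-TF receptors and their testicular relatives are orphan receptors that often repress the targets of others. Nr2f6 had log2 levels of 8.80 in L1, 8.68 in L2, 9.00 in L7 and 8.88 in L8, against 8.89 in H1, 8.78 in H3, 9.11 in H7 and 9.19 in H8. Each low-diet sample was below its littermate, and the groups overlapped. The ratios were -0.09 in H1/L1, -0.11 in H7/L7, -0.10 in H3/L2 and -0.30 in H8/L8, with a mean of -0.15 ± 0.10 (SD, n = 4; limma adjusted p = 0.129). Nr2f1 was at -0.13 ± 0.18 and Nr2f2, which marks veins and stroma in development, at -0.11 ± 0.26. Nr2c1 was at 0.02 ± 0.22 and Nr2c2 at -0.08 ± 0.13.

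The NR4A receptors are orphan receptors induced within minutes to hours of a stimulus. Nr4a1 had log2 ratios of -0.28 in H1/L1, -0.45 in H7/L7, -0.32 in H3/L2 and 0.20 in H8/L8, with a mean of -0.21 ± 0.28 (SD, n = 4; limma adjusted p = 0.296). It was below 0 in 3 pairs and above 0 in H8/L8. Nr4a2 was at -0.07 ± 0.11 and Nr4a3, near background, at -0.01 ± 0.08. Of 18 immediate early genes, which share this mode of induction, 1 passed as lower, namely Fosb at -0.18 ± 0.17 (SD, n = 4; limma adjusted p = 0.0388). Fosb did not pass without the dye term (adjusted p = 0.299) or with median centring (ratio -0.13, adjusted p = 0.151). The list ran from -0.26 to 0.42 with a median of 0.00.

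The remaining receptor genes stayed near 0 by their brightest probe. Hnf4g, a relative of the liver factor HNF4α, was at -0.03 ± 0.07 (SD, n = 4). Nr5a2, an orphan receptor known for bile acid genes in liver, was at -0.04 ± 0.03 and Nr6a1, the germ cell nuclear factor, at -0.03 ± 0.11. A dimmer Nr5a2 probe, above background in 3 low-diet and 3 high-diet samples, was at 0.12 ± 0.14 (limma adjusted p = 0.237). Nr0b2 encodes SHP, a receptor without a DNA-binding domain that blocks other receptors and is a target of FXR, and it was at 0.05 ± 0.07. Over the 29 receptor genes with an unadjusted p of 0.05 or more, the ratios ran from -0.23 to 0.05. The 95% intervals of these 29 genes reached 0.07 to 0.36 to either side of the ratio on the log2 scale. Their median reach was 0.10, and they are not adjusted for the number of probes. These intervals do not exclude differences within that reach of the ratio, and the reach is not a limit of detection. Differences larger than the reach could also miss the adjusted threshold. Nr1i3, for one, stood at -0.17 with an interval of 0.09 to either side and did not pass (limma adjusted p = 0.0605).

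For some receptor genes the sign of the ratio went with the dye orientation of the pair. The dye term of the fit, a log2 ratio of Cy5 over Cy3, had an unadjusted p under 0.05 for 8 receptor genes, which is 21.6% against 19.3% of all named genes. All 8 were brighter in Cy5, namely Rxrg at 0.21, Nr2f2 at 0.21, Esr2 at 0.18, Ppara at 0.17, Ppard at 0.16, Rxra at 0.14, Nr1h2 at 0.13 and Nr2c2 at 0.11. None of them passed for the dye after adjustment in limma. A difference between the littermates of the 2 dye orientations enters the same term and cannot be told apart from the dye.

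**Figure D4:**
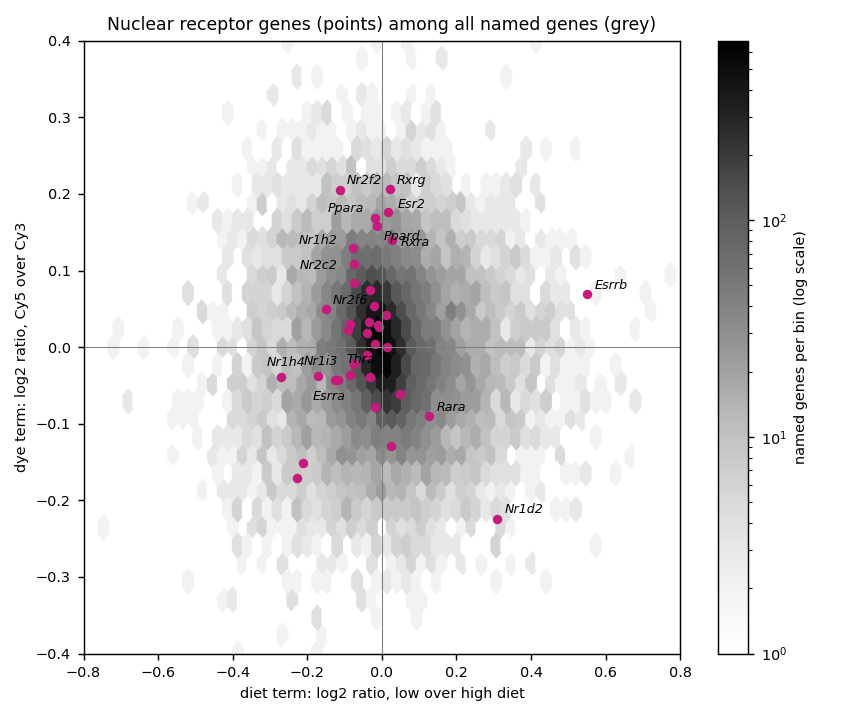
Diet term (horizontal axis, log2 ratio of low over high diet) against dye term (vertical axis, log2 ratio of Cy5 over Cy3) for the 37 receptor genes (points) over all named genes (grey, count per bin on a log scale). Genes with an unadjusted p under 0.05 in either term are labelled. Esrrb lies apart on the diet axis at 0.55, and Rxrg, Nr2f2, Esr2, Ppara, Ppard and Rxra lie high on the dye axis with diet terms between -0.11 and 0.03.

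Partners of the receptors were examined in the same way. Among 21 measured coactivators and corepressors 0 passed in limma, with 3 higher and 4 lower at an unadjusted p under 0.05 and a list median of 0.02. Among 16 PGC1 coactivators and textbook targets of estrogen-related receptors 1 passed, Atp5b, the β subunit of ATP synthase, as lower at -0.25 ± 0.64 (SD, n = 4). Its ratios were 0.37 and 0.25 in the pairs with low diet in Cy5 and -0.80 in each of the other two, and a spot was saturated in 1 high-diet sample, so its direction was not settled. Ppargc1a, which encodes PGC1α, had a ratio of -0.15 ± 0.24 (limma adjusted p = 0.0891). The 16 genes ran from -0.25 to 0.30 with a median of 0.07. At an unadjusted p under 0.05 stood 8 of the 16, 4 higher and 4 lower. This is a larger share than the 26.7% of all named genes.

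Chaperones that hold ligand-binding receptors in a ligand-ready form had 2 calls among 8, both higher, and a list median of 0.23. That is 25% against 7.82% of all named genes. The list ran from -0.35 to 0.50, and 1 member lay below 0 in all 4 pairs. At an unadjusted p under 0.05 stood 5 of the 8, 4 higher and 1 lower, beside 26.7% of all named genes. Ppid, a cyclophilin that joins steroid receptor complexes, rose by 0.50 ± 0.18 (SD, n = 4; limma adjusted p = 0.0128), and a second probe rose by 0.55 ± 0.17, while its dimmest probe was at 0.07 ± 0.16 and did not pass. Ptges3, the p23 co-chaperone, rose by 0.29 ± 0.17 (limma adjusted p = 0.0356), with its dimmer probes at 0.26 and 0.26. Hsp90ab1 was at 0.19 ± 0.12 (limma adjusted p = 0.0530). These chaperones serve many other proteins besides receptors.

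**Figure D5:**
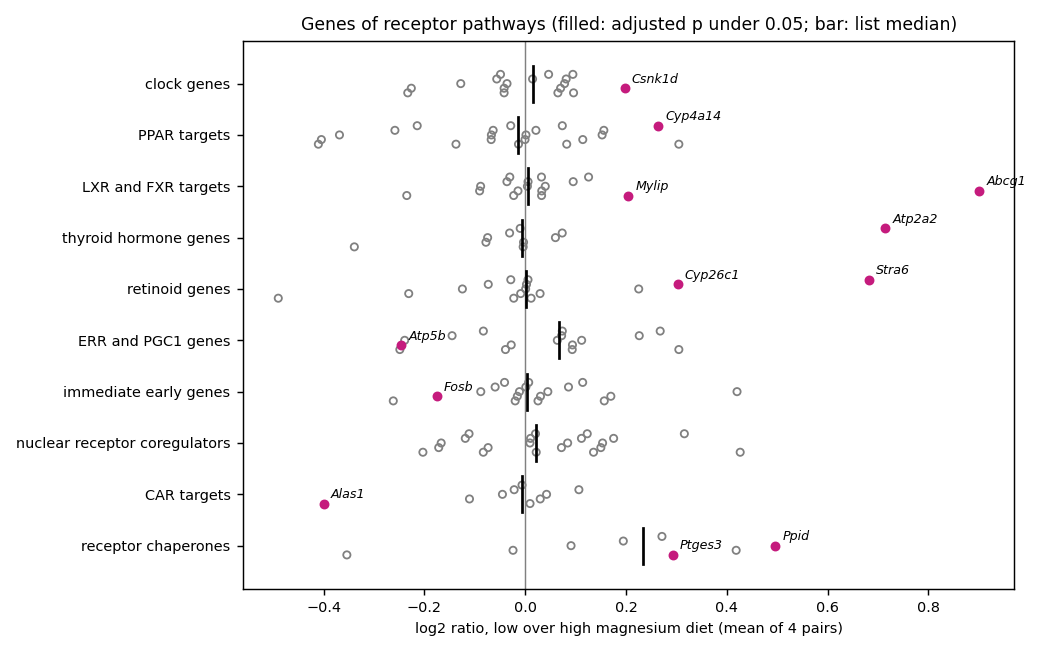
Log2 ratio of low over high diet (horizontal axis, mean of 4 pairs) of genes in 10 lists linked to nuclear receptors (rows). Filled points passed at an adjusted p under 0.05, and the bar is the list median. Abcg1, Atp2a2 and Stra6 lie furthest to the right, and the list medians lie between -0.01 and 0.07 except for receptor chaperones at 0.23.

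Over the 10 lists together, 12 of 150 measured genes that are not receptors passed, 9 higher and 3 lower, which is close to the 7.82% of all named genes. The lists were chosen with earlier results of these data known, so their counts are a description. With 1 pair left out, Abcg1 and Alas1 still passed without H3/L2 alone, Stra6 and Ppid passed without H3/L2, H7/L7 or H8/L8 but not without H1/L1, and the other 8 passed in none of the 4 cases (limma adjusted p between 0.0515 and 0.146). With plain background subtraction Abcg1 was the 1 gene of the 12 that passed.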

How the data were processed

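Per the labels, RNA of sorted fragments was amplified and coupled to Cy3 or Cy5, and each of the 4 mouse arrays was read in 2 colours. The deposited scans hold intensity per spot on a linear scale, with local background in separate columns and not subtracted. For scanner, spot-finding software and genome build the sources used here give no name. Channel 1 was taken as Cy5, which the labels list first. A deposited table holds the authors' log2 ratios per spot, whose scale and direction (channel 1 over channel 2) were found against each scan (r between 0.768 and 0.871 across brighter spots). Its column medians were 0.0041, -0.0038, -0.0035 and 0.0047 in pair order, and its normalization is unknown. A further deposited table gives the authors' mean log2 ratio and p-value per probe, made with maanova per the file headers, with adjustment not stated.

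Here the mean signal was corrected with normexp (offset 50), which shrinks ratios of dim probes, and normalized within arrays by loess with 5791 control spots at weight 0. Each ratio was set as low over high diet and fitted with limma 3.58.1 in R 4.3.3, with a diet term and a dye term, moderated by eBayes, 2-sided. This left 2 residual and 2.68 prior degrees of freedom. Printed SDs are over the 4 turned ratios and include the dye effect. Levels in single samples are log2 intensities after loess and Aquantile. A channel was above background where its mean signal less local background exceeded that of 99 percent of 604 spots of 1 dim control, and saturated at a median of 65000 or more.

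Of 39429 probes, 32431 carried 1 gene symbol, 6998 none here and 0 several. After 2622 old symbols were updated through RefSeq (GRCm38.p6), there were 21713 genes, with 33 symbols kept as given. Each gene is represented by its brightest probe. Of the receptor genes 23 had several probes, and 0 of 31 dimmer probes passed. Levels and ratios of every pair are given for receptor genes with an unadjusted p under 0.05, and from each pathway list the genes that passed are named. Further values were named after they had been seen. Members and lists were chosen with earlier results of these data known. Promoter sequences are RefSeq's and were found for 35 of 37 genes. The fit was tested on simulated data. Background correction, pixel summary, normalization, dye term, dim-probe filter, probe choice, the authors' ratios and leaving out each pair were tried as alternatives. A filter to probes above background in all 8 samples was chosen after seeing the data. The number of arrays limits the precision: an exact sign-flip test over 4 pairs cannot go below p = 0.125.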

Additional observations from a re-analysis of the deposited data

Results flagged for a closer look

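In 65 groups of 4 values, 49 of log2 ratios over the pairs and 16 of levels within a diet, the sample furthest from the others was set against the range of its group, and 8 groups held a sample far from the other 3. Chance alone would give about 5% of groups. Esr1 stood at -0.81 in H1/L1 against -0.06 to 0.02 in the others. Esrra stood at 0.0063 in H3/L2 against -0.16 to -0.16. Esrrg stood at -0.23 in H7/L7 against 0.03 to 0.07. Nr1i3 stood at -0.27 in H1/L1 against -0.15 to -0.13. Nr2f6 stood at -0.30 in H8/L8 against -0.11 to -0.09. Pgr stood at -0.0898 in H3/L2 against 0.01 to 0.02, and Rxrb at 0.0121 in H7/L7 against -0.06 to -0.05. The Esrrb level on the high diet was 10.49 in H8 against 10.05 to 10.12 in the other high-diet samples. The far sample came from each of the 4 arrays at least once.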

How the results depend on the processing

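Of the 13 alternatives, the ratio of Esrrb kept its sign in all and its call in 8, with a range of 0.31 to 0.62 and adjusted p between 0.0181 and 0.0714. The lowest value, 0.31, came from the mean of both probes. Passing receptor genes numbered 0 with plain background subtraction, 2 with no background correction, 3 with median centring and 2 in the authors' processed ratios, against 1; leaving out a pair gave 0 to 1, the 1 being Esr1 without H7/L7. Rara reversed to -0.047 with the mean of all its probes (adjusted p = 0.796). Of the 29 other receptor genes up to 6 changed sign under a setting, the largest main ratio among them being -0.0409, of Nr5a2. Over all probes 279 passed with plain subtraction (204 higher, 75 lower) and 824 without the dye term, against 2296 (1371 higher, 925 lower), and 83 to 863 with a pair left out, lowest without H1/L1. Passing pathway genes numbered 1 with plain subtraction, 20 with no background correction, 7 without the dye term, 8 with the mean of all probes and 19 in the authors' ratios, against 12, and 0 to 6 with a pair left out. Probes with an unadjusted dye p under 0.05 numbered 30481 with median centring, 4129 with the dimmest 50% of probes left out, where fewer were tested, and 0 in the authors' ratios, against 6618, and 3977 to 6271 with a pair left out. The cause of these shifts was not tested. At the 95th percentile of the dim control 34 receptor genes were above background in all 8 samples, against 32. No paired analysis was possible beyond the main one because each array already held a littermate pair. Signal over background limited Pgr, Nr4a3, Nr1d1, Nr5a2 and Esr1.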

Other observations

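In the authors' deposited table, 0 of the 37 receptor genes had a p-value under 0.05, against 287 probes of the whole table. Esrrb had the lowest p-value among them in the authors' deposited table, at 0.378, where the log2 ratio, there high over low diet, was -0.56. Nr1i3 followed in the authors' deposited table with a p-value of 0.975 and a ratio of 0.27, and the other 35 receptor genes had p-values of 1. With the authors' deposited ratios inverted to match the direction used here, 3 of the 37 had a sign opposite to that found here, namely Nr1d1, Nr4a3 and Pgr, which lay near 0 in both.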
